A study of Mus musculus with 4 samples.

Results

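The genes for 8 costimulatory, adhesion and activation proteins of the B cell surface were examined in LPS-stimulated splenic B cells. The cells came from control mice and from mice with Nfkbiz, the gene for IκB-ζ, deleted in their B cells (cKO). They were chosen by name, Cd80, Cd86, Icosl, Cd274, Pdcd1lg2, Icam1, Cd44 and Cd69, and each matched 1 of the 30041 genes listed by RNA-seq. B cells purified from mouse spleen (strain C57BL/6) had been cultured with LPS for 72 h, and 2 samples of each genotype, control and cKO, were sequenced. According to the study's methods, control mice were Nfkbiz fl/Δ, with a loxP-flanked allele over a deleted one, and cKO mice were Nfkbiz fl/Δ Mb1 cre/+, so that both groups lacked a copy of Nfkbiz throughout the animal and the cKO mice also lost the other in cells that express Cre from the Cd79a (Mb1) gene. The dose of LPS is 20 mg/ml in the labels, and the methods give the same number in μg/ml. The mice behind each sample are not given, so the spread between the samples of a group may be technical. The control mice carried no Cre, so effects of Cre or of its insertion in Cd79a cannot be told apart from those of the Nfkbiz deletion.

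CD80 and CD86 are the ligands of the T cell receptors CD28, which adds an activating signal to that of the antigen receptor, and CTLA-4, which restrains it. ICOSL, the ligand of ICOS, belongs to the same family, as do PD-L1 (encoded by Cd274) and PD-L2 (Pdcd1lg2), which engage the inhibitory receptor PD-1. ICAM-1 binds the integrin LFA-1 and holds the contact between B and T cells, CD44 binds hyaluronan in the matrix, and CD69 appears early in lymphocyte activation and takes the egress receptor S1PR1 off the cell surface. Resting B cells carry little of several of these proteins, and Toll-like receptor signals acting through NF-κB raise them.

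The measurement is a score per gene and sample that the authors deposited. Its unit is not stated, but low scores multiplied by exon length fell near whole multiples of a step, as values per exon base and library size would. If 1 step is 1 read, the 4 libraries held about 17500000 to 19900000 reads. Scores are compared between genes below on this inferred per-length scale. Nfkbiz, the deleted gene, was scored at 0.0241 and 0.0226 in the controls and 0.0127 and 0.0116 in the cKO pair, and the groups did not overlap (log2 fold change -0.94, with a standard error, SE, of 0.096 and an adjusted p = 0.0282 by limma). Its RNA thus remained at 0.521 times the control level. What this remainder was could not be read from a score over all exons, and these data do not measure the protein. Of 15 B cell markers, 15 were past the filter on low scores, and their summed scores were 3.87 and 4.30 in the controls and 3.87 and 3.86 in the cKO pair. Among them Cd79a, whose locus carries the Cre in cKO mice, had scores of 0.667 and 0.743 in the controls and 0.415 and 0.407 in the cKO pair (log2 fold change -0.78, SE 0.084, adjusted p = 0.0294 by limma). This adjusted p did not stay under 0.05 with no filter on the score or without the variance trend of the test.

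Across the 8 genes, Cd80 rose in cKO B cells to 2.25 times its control level, and it was the only member past the threshold of 0.05 on the adjusted p. The other 6 members that passed the filter on low scores (at least 0.005 in at least 1 sample) did not pass the test. Cd86 had a fold of 1.33 and Cd44 of 0.732, and Icosl, Cd274, Icam1 and Cd69 lay between 1.07 and 1.14. Pdcd1lg2 did not reach the filter. Over all 9727 genes tested with limma, 79 genes (0.812%) were higher and 122 (1.25%) lower in cKO B cells, 2.07% in either direction. Of the 7 members tested, 1 was higher and 0 were lower, and at an unadjusted p under 0.05 these counts were 2 (Cd80 and Cd86) and 1 (Cd44), where 10.8% of all genes tested were higher and 11.5% lower.

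**Figure D1:**
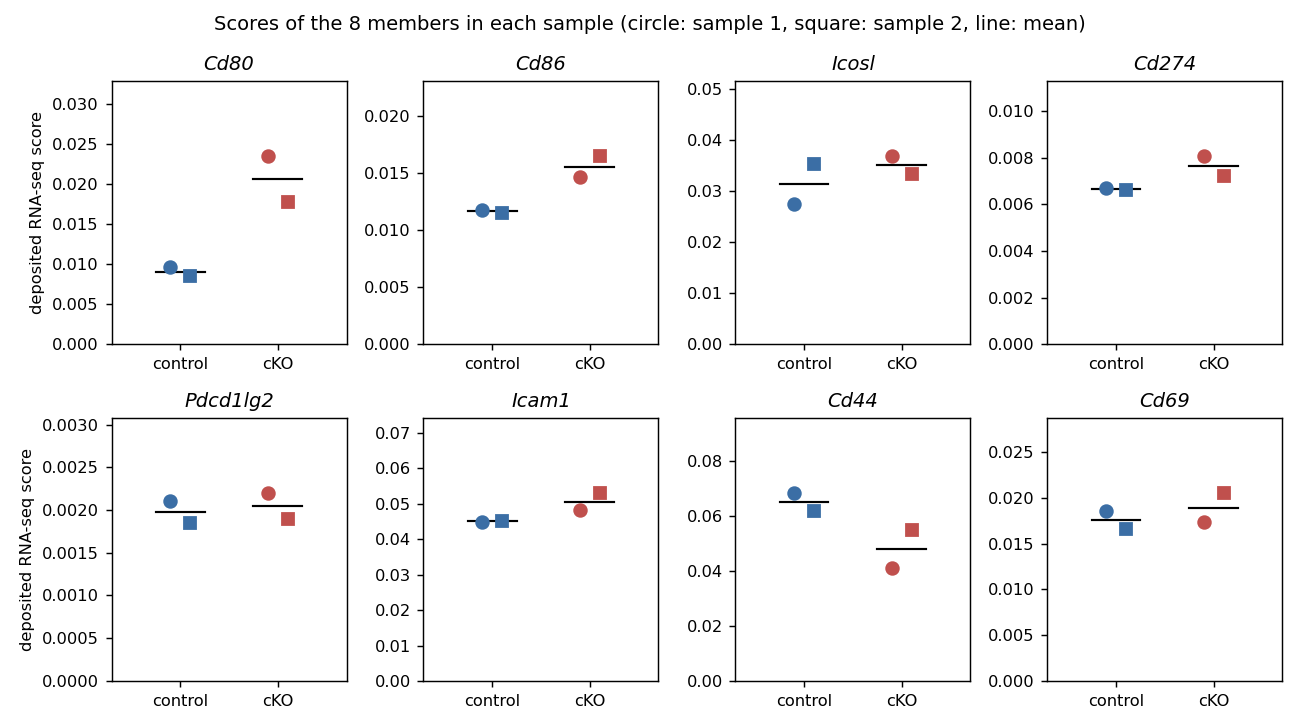
Deposited RNA-seq score (vertical axis, from 0) of each of the 8 genes in the control and cKO samples. Points are single samples (circle for sample 1, square for sample 2) and lines are the means of 2 samples. The cKO scores of Cd80 (0.0235 and 0.0178) lie above the control scores (0.00968 and 0.00848) by more than either pair spreads.

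In the promoters, sequences like those that the transcription factors NF-κB and AP-1 read were looked up, because both carry Toll-like receptor signals to such genes. RefSeq promoter windows (GRCm38.p6, from 250 bases before to 50 bases after a transcription start) were matched for 6 members, Cd80, Icosl, Cd274, Pdcd1lg2, Icam1 and Cd44. Shown 5′ to 3′ on the gene's strand, with the matched letters in capitals, are the 3 windows that held a match, Cd80 (chr16:38458683-38458982, plus strand), Icam1 (chr9:21015690-21015989, plus strand) and Pdcd1lg2 (chr19:29410669-29410968, plus strand).
Cd80: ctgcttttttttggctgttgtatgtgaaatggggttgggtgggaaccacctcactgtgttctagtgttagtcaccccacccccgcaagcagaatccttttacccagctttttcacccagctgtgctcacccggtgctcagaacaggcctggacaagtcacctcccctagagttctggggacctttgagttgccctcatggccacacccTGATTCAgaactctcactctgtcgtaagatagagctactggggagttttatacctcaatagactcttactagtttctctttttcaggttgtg
Icam1: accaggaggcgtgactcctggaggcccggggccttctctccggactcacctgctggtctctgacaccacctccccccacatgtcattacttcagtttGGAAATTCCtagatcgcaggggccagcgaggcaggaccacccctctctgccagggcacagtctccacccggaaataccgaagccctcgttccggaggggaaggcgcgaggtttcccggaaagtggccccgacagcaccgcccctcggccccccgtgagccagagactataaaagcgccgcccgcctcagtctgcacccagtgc
Pdcd1lg2: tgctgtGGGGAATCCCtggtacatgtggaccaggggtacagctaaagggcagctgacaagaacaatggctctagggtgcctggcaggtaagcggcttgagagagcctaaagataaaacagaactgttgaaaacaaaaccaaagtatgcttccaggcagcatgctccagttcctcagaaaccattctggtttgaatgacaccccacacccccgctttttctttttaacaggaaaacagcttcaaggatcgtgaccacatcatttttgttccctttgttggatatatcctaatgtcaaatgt
The motifs were searched on both strands. TGANTCA, an AP-1-like sequence with any letter at its centre, was found in the Cd80 window 42 bases before the start, as TGATTCA. It is found in 7.81% of 32851 promoter windows. GGAAATTCC, a κB-like sequence of 9 letters, was found in the Icam1 window 153 bases before the start, against 0.317% of all windows. The κB consensus of 10 letters was matched in the Pdcd1lg2 window 244 bases before the start, against 4.51% of windows, and a further form, GGG and TTTCC with NN between them, which overlaps the consensus in part of its letters, was matched in 0 of the 6 and in 1.63% of all windows. The Cd80 window held no match to any of the 3 κB forms, and it had 3 CpG dinucleotides, where the median of all windows was 7. Icam1 had 19 and Icosl 26. The windows of Icosl, Cd274 and Cd44 held no match to any of the 4 motifs. A match describes letters in the window and does not show binding.

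The ligands of CD28 and CTLA-4 are considered first. The score of Cd80 was 0.00968 and 0.00848 in the controls (0.00908 ± 0.000849, SD, n = 2) and 0.0235 and 0.0178 in the cKO pair (0.0207 ± 0.00402, SD, n = 2). Both cKO samples were high, and the groups did not overlap. With 2921 exon bases, about 505 and 454 inferred reads lay behind the control values, and 1369 and 913 behind those of cKO B cells. The log2 fold change was 1.17 (SE 0.155, adjusted p = 0.0345 by limma), with a 95% interval of the fold from 1.72 to 2.93. In the order of all genes tested by p, Cd80 stood at position 89. Its place among the scores of all genes tested went from the 26.9th and 21.3rd percentile in the controls to the 61.4th and 50.8th in the cKO pair. The call was lost with no filter on the score (adjusted p = 0.212), without the variance trend (0.0640), without cKO replicate 1 (log2 fold change 0.97, adjusted p = 0.174) and without cKO replicate 2 (1.37, adjusted p = 0.0573), while the direction was kept in each. With 2 samples a group, the smallest two-sided p of an exact permutation test is 0.33. Summed markers of myeloid and of T and NK cells, given below, were also higher in both cKO samples, and their part in the result was not tested. In bulk RNA, more cells that express the gene and more RNA per cell cannot be told apart.

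Cd86, which encodes the second ligand of the same receptors, had scores of 0.0118 and 0.0115 in the controls (0.0117 ± 0.000205, SD, n = 2) and 0.0147 and 0.0165 in the cKO pair (0.0156 ± 0.00129, SD, n = 2). The groups did not overlap, with the control samples nearly equal. Among all genes tested, both cKO scores lay above both control scores for 28.1% and below them for 30.1%, so such a separation is common in these data. The log2 fold change of Cd86 was 0.41 (SE 0.100, adjusted p = 0.110 by limma), and the 95% interval of the fold ran from 1.12 to 1.58. This interval lies below that of Cd80. Within a sample, where the scaling of samples cancels, the ratio of the Cd80 score to the Cd86 score was 0.820 and 0.736 in the controls and 1.60 and 1.08 in the cKO pair. Cd86 thus had the higher score of the pair in each control sample and Cd80 in each cKO sample. Relative to the summed B cell markers without Cd79a (per 1000 units), Cd80 had 3.02 and 2.38 in the controls and 6.81 and 5.16 in the cKO pair, and Cd86 had 3.69 and 3.24 against 4.24 and 4.77. The groups stayed apart for both genes on this scale.

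Icosl encodes the ligand of ICOS, the receptor through which B cells support follicular helper T cells. Its scores were 0.0275 and 0.0353 in the controls and 0.0368 and 0.0333 in the cKO pair. The groups overlapped, because control 2 lay above cKO 2. The log2 fold change was 0.17 (SE 0.138, adjusted p = 0.496 by limma), with a 95% interval of the fold from 0.888 to 1.42, and without control replicate 1 it was -0.01. A change of Icosl as large as that of Cd80 lies outside this interval.

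The ligands of PD-1 were the members with the lowest scores. Cd274 (PD-L1) had 0.00669 and 0.00664 in the controls and 0.00807 and 0.00724 in the cKO pair, or about 432 and 441 against 582 and 460 inferred reads. The groups did not overlap, but the log2 fold change was 0.20 (SE 0.127, adjusted p = 0.404 by limma), with a 95% interval of the fold from 0.922 to 1.42. Pdcd1lg2 (PD-L2) had 0.00211 and 0.00185 in the controls and 0.00220 and 0.00190 in the cKO pair, about 55 to 72 reads in each. These groups overlapped. In the fit with no filter, the only one in which Pdcd1lg2 entered, its log2 fold change was 0.05 (SE 0.180, adjusted p = 0.914 by limma), with a 95% interval from -0.45 to 0.55. The ratio of Cd274 to Pdcd1lg2 was 3.17 and 3.59 in the controls and 3.67 and 3.81 in the cKO pair. PD-L1 transcripts were therefore the more abundant of the pair in every sample on the per-length scale.

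Among the adhesion molecules, Cd44 was the member with the highest score in 3 of the 4 samples. It had 0.0684 and 0.0619 in the controls (0.0652 ± 0.00460, SD, n = 2) and 0.0412 and 0.0550 in the cKO pair (0.0481 ± 0.00977, SD, n = 2). Both cKO samples lay below both control samples, and cKO 1 was the lower of the pair. The log2 fold change was -0.45 (SE 0.150, adjusted p = 0.175 by limma), with a 95% interval of the fold from 0.566 to 0.946. Without cKO replicate 1 the log2 fold change was -0.24, and without cKO replicate 2 it was -0.66. The score of a gene covers its exons together, so the variant exons that distinguish CD44 isoforms could not be read from it.

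Icam1 had 0.0449 and 0.0452 in the controls and 0.0482 and 0.0531 in the cKO pair. The groups did not overlap, with a log2 fold change of 0.17 (SE 0.088, adjusted p = 0.319 by limma) and a 95% interval of the fold from 0.966 to 1.30. The annotation places a noncoding transcript, Mir1900, on the opposite strand over 491 exon bases of Icam1, and whether strand was used in the scores is not given in the sources used here. The ratio of Cd44 to Icam1 was 1.52 and 1.37 in the controls and 0.855 and 1.04 in the cKO pair, so the adhesion genes stood closer to each other in cKO B cells.

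Cd69, the early activation marker, had 0.0186 and 0.0166 in the controls and 0.0174 and 0.0206 in the cKO pair. These groups overlapped. The log2 fold change was 0.10 (SE 0.118, adjusted p = 0.633 by limma), with a 95% interval of the fold from 0.877 to 1.31, and it was -0.02 without cKO replicate 2.

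**Figure D2:**
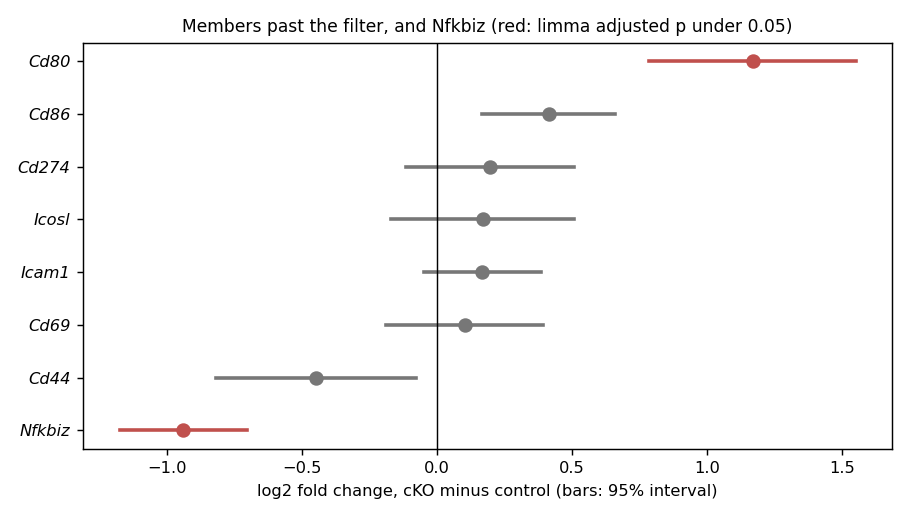
Log2 fold change of cKO against control B cells (horizontal axis) for the 7 members tested and for Nfkbiz. Points are limma estimates, bars are 95% intervals and red marks an adjusted p under 0.05. Cd80 (1.17) and Nfkbiz (-0.94) are red, and the bars of Cd86 and Cd44 do not reach 0 although their adjusted p did not pass.

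The order of the 8 levels was the same in both control samples, from Cd44 through Icam1, Icosl, Cd69, Cd86, Cd80 and Cd274 to Pdcd1lg2, and no neighbours in it overlapped. In the cKO samples Cd80 moved from rank 6 to rank 4 in cKO 1 and to rank 5 in cKO 2. There Cd44 and Icam1 overlapped, as did Cd80 and Cd69, and Cd86 lay below both of the latter. The 8 scores summed to 0.190 and 0.187 in the controls and to 0.192 and 0.205 in the cKO pair. The median log2 fold change of the 7 members tested was 0.17, beside -0.01 over all genes tested.

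The members lie at 6 chromosomes of NCBIM37, the assembly called mm9. Cd86 (minus strand of chr16:36603955-36666167) and Cd80 (plus strand of chr16:38459013-38495821) share chromosome 16 with Nfkbiz, which starts 17.3 Mb beyond Cd80. Between Cd86 and Nfkbiz, leaving out Cd80, 35 other genes were tested, with a median log2 fold change of 0.05. Of these 35, 2 were lower and 1 higher, beside 1.25% and 0.812% of all genes tested. The neighbours given here are the nearest tested genes on each side, and untested genes may lie between. For Cd80 they were Adprh, 6.24 kb away, and 4930455C21Rik, 2.61 kb away. Their log2 fold changes were 0.11 (limma adjusted p = 0.457) and -0.03 (0.848). For Cd86 they were Eaf2, at a distance of 127 kb, and Ccdc58, at 512 kb. Eaf2, which is 1 of the 2 lower genes of the interval above, fell by 1.16 on the log2 scale (SE 0.167, adjusted p = 0.0383 by limma). Ccdc58 had a log2 fold change of -0.41 (adjusted p = 0.119). The nearest tested genes of Cd80 were not called, and the called neighbour of Cd86 had a log2 fold change of the opposite sign. Cd274 (plus strand of chr19:29441945-29462585) and Pdcd1lg2 (plus strand of chr19:29485409-29545647) lie 22.8 kb apart. Cd44 is on the minus strand of chr2:102651298-102741822, Icam1 on the plus strand of chr9:20820404-20833241, Icosl on the plus strand of chr10:77532105-77546000 and Cd69 on the minus strand of chr6:129217342-129225387. Of the 15 neighbouring genes of the 8 members (Cd274 among them), 2 had an adjusted p under 0.05, Eaf2 and Pfkl. Pfkl, 59.3 kb from Icosl, encodes a glycolytic enzyme (log2 fold change -0.68, limma adjusted p = 0.0338). Neither was called with no filter on the score.

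On the receptor side, 13 of 22 receptors, partners and turnover factors of the members passed the filter, and 1 rose and 0 fell. Over all genes tested, 0.812% were higher and 1.25% lower. At an unadjusted limma p under 0.05, 4 of the 13 were higher and 1 lower, beside 10.8% and 11.5% of all genes tested. The gene called higher was Pdcd1, which encodes PD-1, the receptor of PD-L1 and PD-L2. Its scores were 0.00792 and 0.0116 in the controls and 0.0232 and 0.0250 in the cKO pair, a log2 fold change of 1.32 (SE 0.182, adjusted p = 0.0364 by limma). The calls of Pdcd1 and of the genes called in the lists below were lost with no filter on the score, without the variance trend and without either cKO sample. Cd28, Ctla4 and Icos, the T cell receptors of the other ligands, did not reach the filter. The subunits of LFA-1, the partner of ICAM-1, had log2 fold changes of -0.11 for Itgal (adjusted p = 0.438) and 0.18 for Itgb2 (0.244). S1pr1, the partner of CD69, had 0.0218 and 0.0327 in the controls and 0.0574 and 0.0486 in the cKO pair, groups that did not overlap, with a log2 fold change of 0.98 that missed the threshold (adjusted p = 0.0793). Spp1, which encodes osteopontin, a ligand of CD44, had the largest log2 fold change of the list, 2.14 (SE 0.620, adjusted p = 0.140), with control scores of 0.0143 and 0.0570 that differed widely and cKO scores of 0.160 and 0.0991. Among proteins that set the surface level of the members, March1, a ubiquitin ligase that takes CD86 off the surface, had a log2 fold change of 0.29 (adjusted p = 0.210), and Cmtm6, which protects PD-L1, of 0.16 (0.325).

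Of 29 other costimulatory ligands and partners on B cells, 20 passed the filter, of which 2 fell and 0 rose (unadjusted, 5 had a p under 0.05 with a negative and 4 with a positive log2 fold change, beside 11.5% and 10.8% of all genes tested). Slamf1, a receptor that binds its own kind between lymphocytes, had 0.0113 and 0.00988 in the controls and 0.00443 and 0.00541 in the cKO pair (log2 fold change -1.09, SE 0.154, adjusted p = 0.0376 by limma). Cd24a, which encodes the heat-stable antigen, had 0.342 and 0.322 against 0.206 and 0.215 (log2 fold change -0.66, SE 0.079, adjusted p = 0.0306 by limma). These were the strongest falls of the list. Cd40, the receptor of the T cell's CD40 ligand, had a log2 fold change of -0.32 (adjusted p = 0.207) and Cd83, a marker of activated B cells, of -0.28 (0.128), both below the control samples in both cKO samples. Slamf7 had the largest log2 fold change above 0 in the list, 0.83 (limma adjusted p = 0.0793), and Tnfsf9 (4-1BB ligand) had 0.62 (0.118). For both genes the cKO samples lay above the control samples, so costimulatory genes lay on either side of 0. Cd70 had 0.77 (0.283), but it passed the filter only through cKO 2 (0.00573), so its positive sign follows from how it entered the test. The list had a median of -0.01, with 10 genes on each side of 0, Cd70 among those above. Among those below, 4632428N05Rik (-0.39) passed the filter only through control 1 (0.00543), so its negative sign likewise follows from its entry. The median and the balance include both genes.

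**Figure D3:**
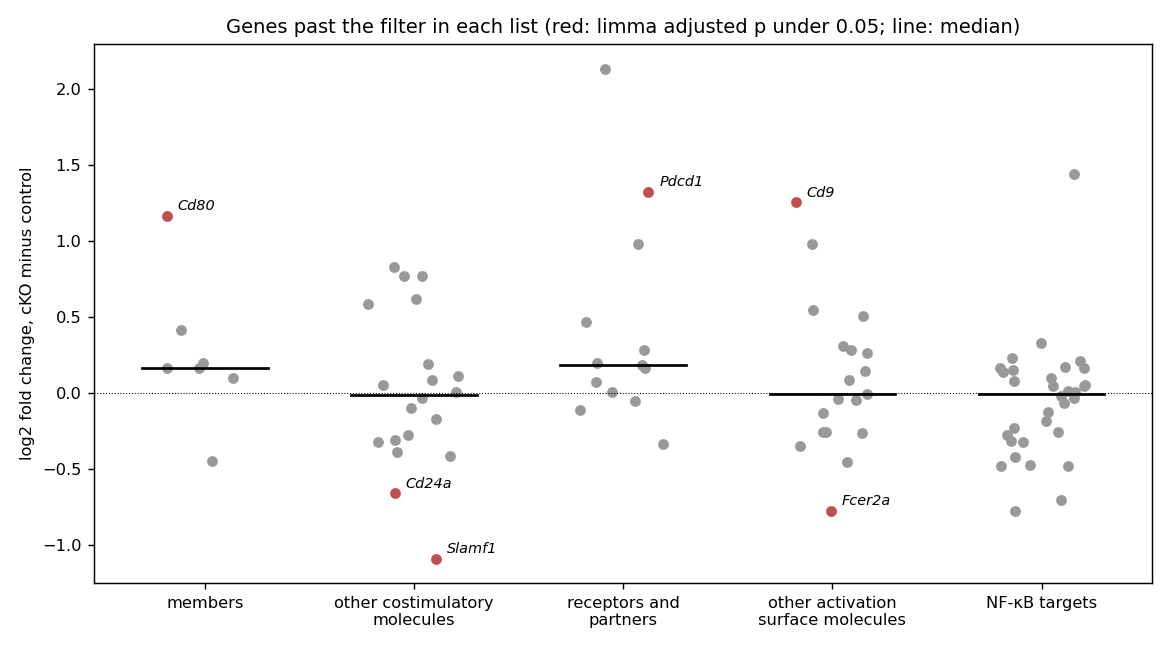
Log2 fold change of cKO against control B cells (vertical axis) for every gene past the filter in 5 lists (horizontal axis). Each point is a gene, red marks an adjusted p under 0.05 and lines are the medians of the lists. Cd80, Pdcd1 and Cd9 are the red points above 0, and Slamf1, Cd24a and Fcer2a those below.

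Of 22 other activation surface molecules, 19 passed the filter, of which 1 rose and 1 fell, beside 0.812% and 1.25% of all genes tested. At an unadjusted limma p under 0.05, 6 were higher and 4 lower, beside 10.8% and 11.5% of all genes tested. Cd9, which encodes a tetraspanin found on marginal zone B cells and plasma cells, had 0.0146 and 0.0222 in the controls and 0.0468 and 0.0395 in the cKO pair (log2 fold change 1.26, SE 0.206, adjusted p = 0.0496 by limma), a call that was also lost under quantile normalization. Fcer2a, which encodes CD23, the low-affinity IgE receptor of follicular B cells, had 0.300 and 0.313 against 0.161 and 0.20 (log2 fold change -0.78, SE 0.118, adjusted p = 0.0428 by limma). Itga4 had a log2 fold change of 0.98 (limma adjusted p = 0.107) and Il2ra (CD25) of 0.50 (0.143). Tfrc, the transferrin receptor, had -0.46 (0.0769) and Fas -0.25 (0.291).

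The NF-κB targets of activated B cells were read as a group because the members are commonly counted among such targets. Of 34, 32 passed the filter, and limma called 0 lower and 0 higher. Without adjustment, 10 had a p under 0.05 with a negative and 2 with a positive log2 fold change, beside 11.5% and 10.8% of all genes tested. Among the 10 were Bcl2a1a, Bcl2a1b and Bcl2a1d, genes of the same family with nearly equal log2 fold changes (-0.48, -0.48 and -0.47). Cd83 and Cd40 were also among them and are counted in the costimulatory list above as well. The 10 are therefore not all separate from each other or from that list, which limits setting their count against the share of all genes. The median log2 fold change of the list was -0.01. Nfkbia, the feedback inhibitor of NF-κB, had a log2 fold change of -0.23 (adjusted p = 0.188), Tnfaip3 (A20) of -0.32 (0.222) and Ccl22, a chemokine, of 1.44 (0.0912). The list held 16 genes with a positive and 16 with a negative log2 fold change.

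Markers of other cell types were measured because myeloid and dendritic cells also carry CD80. By the study's methods, cells bearing CD43, CD4 or Ter-119 had been depleted before culture. Of 22 myeloid and dendritic markers, 4 passed the filter. The summed score of the list was 0.188 and 0.180 in the controls and 0.223 and 0.226 in the cKO pair. Most of it was Itgam (0.141 and 0.150 against 0.135 and 0.158), and without Itgam the sums were 0.0469 and 0.0297 against 0.0887 and 0.0676. Lyz2 had 0.0205 and 0.0112 in the controls and 0.0485 and 0.0329 in the cKO pair (log2 fold change 1.39, limma adjusted p = 0.0961). Csf1r had 0.00261 and 0.00183 against 0.00345 and 0.00305, Itgax at most 0.00026 in any sample, and Elane, S100a9 and Clec9a were listed at 0 in all 4. Not all markers of the list went that way. Xcr1 had 0.00241 and 0.00229 in the controls and 0.00189 and 0.0019 in the cKO pair. Batf3, also lower, had 0.00047 and 0.00049 against 9e-05 and 0.00017. Of 20 T and NK cell markers 1 passed the filter, and the list summed to 0.0391 and 0.0508 in the controls and 0.0824 and 0.0753 in the cKO pair. Most of that sum was Lck (0.0318 and 0.0437 against 0.0690 and 0.0636), and without Lck the sums were 0.00731 and 0.00702 against 0.0134 and 0.0117. Cd3e was at most 0.0002 and Gzma was listed at 0 in all 4 samples. Cd28 (0.00033 and 0.00032 against 0.00021 and 0.00013) and Prf1 (0.00057 and 0.00061 against 0.00051 and 0.00022) were lower in both cKO samples. Of 12 erythroid and platelet markers 2 passed, and that list summed to 0.0152 and 0.00398 against 0.00607 and 0.00503. The myeloid and the T and NK sums were higher in both cKO samples, as Cd80, Pdcd1 and S1pr1 were, and their part in those differences was not tested.

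**Figure D4:**
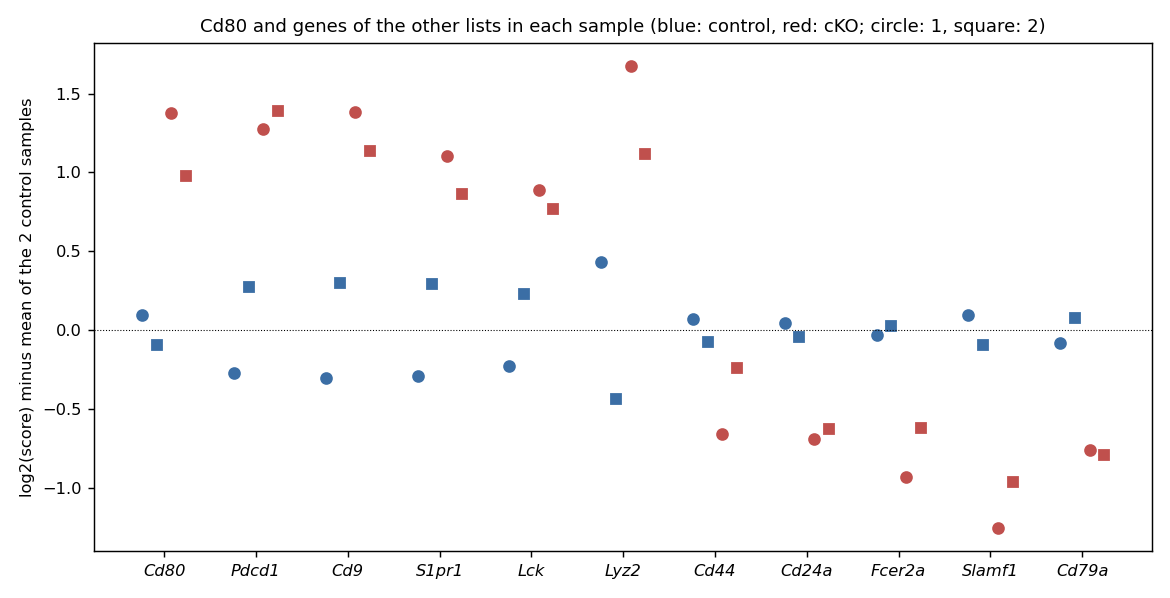
Log2 score of 11 genes in each sample (vertical axis), relative to the mean of the 2 control samples. Blue is control and red cKO, circles are sample 1 and squares sample 2. Cd80 and Pdcd1 lie above the control samples in both cKO samples, as do Lck and Lyz2 among the markers of other cells, and Cd24a, Fcer2a, Slamf1 and Cd79a lie below.

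The genes whose pattern over the 4 samples was nearest to that of Cd80 were Gstm1, Ppt2 and Rhbdf1, at Euclidean distances of 0.0643, 0.130 and 0.150 between log2 values centred on each gene's mean. Their log2 fold changes were 1.12, 1.17 and 1.05, with limma adjusted p of 0.121, 0.0568 and 0.0748. Because they were picked for their likeness to Cd80, fold changes near its own follow from the choice and are no separate result. All of them passed the filter on low scores only through cKO samples, with control scores from 0.00188 to 0.00417. With 4 samples this likeness is a description of these libraries.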

How the data were processed

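RNA-seq of 2 control and 2 cKO samples was analysed, each a separate sample by its label. According to the study's methods, poly(A) RNA was sequenced in short reads on an Illumina instrument, mapped to mm9 with TopHat (TopHat2 2.0 in the submitters' processing notes, which also list CASAVA 1.8, Bowtie and SAMtools), and reads on rRNA and tRNA genes were removed with BED Tools. The authors deposited a score per gene and sample with Entrez identifier and symbol; how mapped reads became scores is not given in the sources used here. The depth was inferred from single-transcript genes of 600 to 1600 exon bases, in which 75.4 to 81.9% of low values lay within 0.2 of a whole step; had the real step been larger by a whole factor, these read numbers would be too high.

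From the scores, genes with at least 0.005 in at least 1 sample were tested (9727 of 30041, among them 7 of the 8 members) on log2(score + 0.0001). The moderated test of limma 3.58.1 (R 4.3.3) with a variance trend was two-sided, and p-values were adjusted by Benjamini-Hochberg over every gene tested, with a threshold of 0.05. Fold changes are on that scale and understate changes of low genes. Gene models were GENCODE on NCBIM37, and promoters were RefSeq windows on GRCm38.p6. The members and lists were chosen with earlier results of these data known, and the motifs after the values were seen. Named are the members, Nfkbiz, in each list up to 4 called genes per direction with the largest change, the nearest tested gene on each side of a member and the 3 genes nearest in pattern to the member with the largest change. Other list genes were named for their known role or the size of their change after their values were seen. Python 3.11.15, pandas 2.3.3, numpy 2.4.6 and matplotlib 3.10.9 were used for tables and figures.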

Additional observations from a re-analysis of the deposited data

How the results depend on the processing

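Of the 7 members tested, none became called in any alternative except Cd80, which was called in 7 of the 11 alternatives that could test it. Members called higher numbered 0 in place of 1 with no filter on the score, with the score above 0.05 (where Cd80 was not tested), without the variance trend and in the fits without 1 cKO sample, giving a range from 0 to 1 when a sample was left out. Over all genes, against 122 lower and 79 higher, limma gave 0 and 0 when unfiltered (unadjusted, 1538 and 1665), 88 and 35 with the score above 0.05, and 22 and 11 without the variance trend. Omitting single samples gave from 0 to 391 lower and from 0 to 439 higher, with 0 and 0 without either cKO sample (unadjusted, 519 and 428 without cKO replicate 1 and 982 and 767 without cKO replicate 2), and 391 and 439 without control replicate 2. Same-numbered samples share only a number, with a correlation of -0.145 (Spearman -0.291) between their deviations across genes. The replicate block gave 180 lower and 177 higher, the adjusted p of Cd80 was 0.00247 and no other member's call changed. Under this block, 3 of the receptors and partners were higher (1 without it), 3 of the other costimulatory genes (0), 2 of the other activation molecules (1), 1 of the NF-κB targets (0), 2 of the myeloid markers (0) and 1 of the T and NK markers (0). Without control replicate 2, the number of genes called changed in each list other than the members, the NF-κB targets and the B cell markers among them. Without control replicate 1 it changed in the same lists except the NF-κB targets, the B cell markers and the erythroid and platelet markers. The crossed replicate block, chosen after the data were seen, gave 230 lower and 212 higher, with Cd80 the 1 member called. In that fit 2 of the NF-κB targets were called lower (0 in the main fit), and calls in other lists changed as well. The cause of these changes was not tested.

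The log2 fold change of Cd80 ranged from 0.97 to 1.37, that of Cd86 from 0.33 to 0.50 and that of Cd44 from -0.66 to -0.24. Icosl ranged from -0.011 (without control replicate 1, where it changed sign) to 0.35, and Cd69 from -0.019 (without cKO replicate 2, likewise) to 0.22. Of 389 other values under alternatives, for single genes and lists, 306 stayed the same and 73 moved. The call was lost in 8 (4 each for Cd80 and Nfkbiz), and the sign changed in the 2 named for Icosl and Cd69. For a gene, the same meant direction and side of the threshold, and for a median a shift within the spread. For a count of called genes it meant an equal or similar count, often with none called in either fit. Such counts say little about stability. Depth limits Pdcd1lg2 most, with about 55 to 72 inferred reads.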
